A study of Homo sapiens with 4 samples.

Results

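The activin family was studied here through 10 genes, INHA, INHBA, INHBB, INHBC, INHBE, FST, FSTL3, ACVR1B, ACVR2A and ACVR2B, of 57500 genes with deposited counts. The family was selected on measured values of the same libraries: INHBE was the gene that stood out between NOS2KO clones and parental cells, and its relatives were then added by name. Every comparison of these members between clones and parental cells is therefore a description. No p-value is printed for a member, and where a member is said to pass a p threshold, nothing is read from it. INHBE mRNA was abundant in the parental cells and 240-fold to 298-fold lower in the 3 clones, INHBA was 54.4-fold to 202.5-fold lower, and the 3 receptors among the members (ACVR1B, ACVR2A and ACVR2B) differed from the parental library by less than 1 on the log2 scale in every clone.

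Activins are dimers of inhibin beta subunits, and inhibins pair a beta subunit with the alpha subunit encoded by INHA. Activins bind a type II receptor (ACVR2A or ACVR2B), which recruits a type I receptor (ACVR1B or ACVR1C), and the pair phosphorylates SMAD2 and SMAD3, which act with SMAD4 in the nucleus. Follistatin (FST) and follistatin-like 3 (FSTL3) bind activin A, the dimer of the INHBA subunit, outside the cell and block it. INHBE, known mainly as a liver gene, is also known as a target of the integrated stress response.

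RNA-sequencing covered SUM159, a triple-negative breast cancer cell line that the study uses as a model of metaplastic breast cancer. The parental group is 1 library of SUM159 cells with the genotype label Parental Control. The NOS2KO group is 3 libraries, from SUM159 cells transfected with a NOS2 Double Nickase plasmid, kept in puromycin, and picked as resistant clones by iNOS immunoblot and a nitrite/nitrate assay. All cells grew in DMEM with 10% FBS and an antibiotic-antimycotic, and no other drug was given. Each NOS2KO library is 1 clone, numbered 1, 5 and 6 in the labels, so differences between clones and an effect of the knockout cannot be told apart in any single clone. Nothing says that the parental cells went through transfection or cloning. All 3 clones are compared with the same parental library. Over the clones together, the knockout, selection and cloning, and the state of that 1 parental culture therefore cannot be told apart either.

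The reads counted on genes came to between 90467395 and 122171287 per library. A floor of 3 counts therefore lies at 0.0246 to 0.0332 CPM (counts per 1000000 counts of the library), and floors and intervals cover only the error of counting. The transcript of the targeted gene, NOS2, does not check the labels, since it was at or under that floor in each library except the one labelled clone 5, which had 18 counts. Of 11 breast cell line markers 10 were tested, of which 9 had a fitted log2 fold change above 0 and 1 below it. Vimentin (VIM), CD44, KRT8 and KRT18 were expressed at 254 CPM or more in every library, while EPCAM, CDH1, ESR1 and PGR stayed under 1 CPM. KRT14 was far lower in every clone than in the parental library, with its counts given under other observations. Of 9 hepatocyte markers 3 were tested, with a summed level of 12.8 CPM in the parental library and 8.20 to 82.3 CPM in the clones. INHBC, itself a member of the family and described below, is in this marker list and was among the 3 tested. ALB, APOA2 and TTR had at most 3 counts in every library, while SERPINA1 had 12.3 CPM in the parental library and 82.0, 7.95 and 16.4 CPM in clone 1, the library labelled clone 5 and clone 6. Of 8 markers of other cell types 6 were tested, of which 4 had a fitted log2 fold change below 0 and 2 above it, with a median of -0.69. Their summed level was 34.8 CPM in the parental library and 64.4 to 121 CPM in the clones, where PTPRC (CD45) made up most of it. PTPRC met the criterion defined below and was higher, with 4.45 CPM in the parental library and 68.4, 105 and 41.7 CPM in the clones, in the same order. CD14 had 12.8 CPM and then 2.29, 4.28 and 11.3 CPM, HBB had 19 counts and then 0, 4 and 0, and CD3E and ADIPOQ had at most 8 counts in any library. Whether these markers have a part in the results was not tested.

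INHBE (ENSG00000139269) lies on chromosome 12 of GRCh38 from 57452323 to 57459280, on the plus strand, and encodes the inhibin beta E subunit. It had 24029 counts in the parental library, against 120 in clone 1, 109 in clone 6 and 95 in the library labelled clone 5. Scaled by TMM (edgeR's correction for library composition), this was 265.8 CPM in the parental library and 1.05, 0.891 and 1.11 CPM in clone 1, the library labelled clone 5 and clone 6, the order kept from here on. The parental library was far above all 3 clones, and the clones lay close together, at 1.01 ± 0.111 CPM (SD, n = 3), with a 1.24-fold span from lowest to highest. INHBE was thus 254-fold lower in clone 1, 298-fold lower in the library labelled clone 5 and 240-fold lower in clone 6. The log2 ratios to the parental library were -7.99 (exact 95% interval -8.26 to -7.73), -8.22 (-8.53 to -7.93) and -7.91 (-8.19 to -7.64). The intervals of the 3 clones overlap one another. With 95 to 120 counts left, INHBE remained above the floor in every clone. In these bulk samples, fewer cells that express a gene and less RNA per cell cannot be told apart.

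Per kilobase of exon, INHBE ranked 411 of 22511 genes in the parental library. In the clones it ranked 14521, 15709 and 14871. Among the 9657 genes with at least 10 CPM in the parental library, its fall was the 5th largest in clone 1, and the 9th largest in both the library labelled clone 5 and clone 6. A log2 difference of more than 7 in all 3 clones was seen for 6 of those genes, and one of more than 5 for 10.

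**Figure D1:**
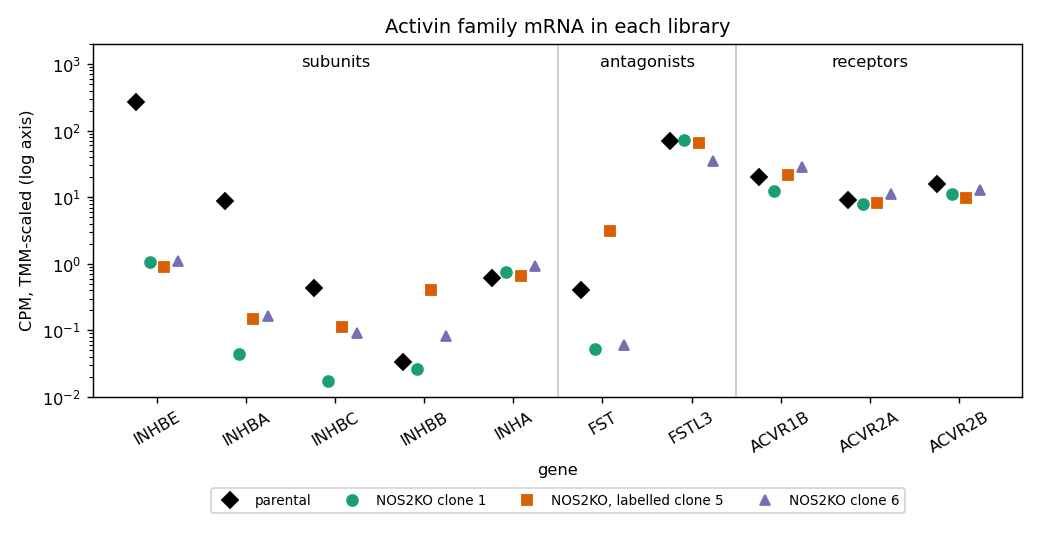
mRNA level of the 10 activin family genes in each library, in TMM-scaled CPM on a log axis, with 1 point per library and no error bar since each library is 1 sample. INHBE and INHBA sit far higher in the parental library (265.8 and 8.83 CPM) than in any clone, FST and INHBB are highest in the library labelled clone 5, and the points of the receptors lie close together.

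INHBA (ENSG00000122641, chromosome 7 of GRCh38 from 41667168 to 41705834, minus strand) encodes the beta A subunit, which makes activin A. It had 798 counts in the parental library and 5, 16 and 16 in clone 1, the library labelled clone 5 and clone 6, or 8.83, 0.0436, 0.150 and 0.162 CPM. All 3 clones lay far under the parental library, with clone 1 the lowest. INHBA was 202.5-fold lower in clone 1 (log2 ratio -7.66, interval -9.29 to -6.43), 58.8-fold lower in the library labelled clone 5 and 54.4-fold lower in clone 6.

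INHBC (ENSG00000175189, chromosome 12 from 57434760 to 57450828, plus strand) encodes the beta C subunit and is the nearest gene before INHBE. It was a low-count gene, with 39 counts in the parental library (0.431 CPM). The clones had 2, 12 and 9 counts, or 0.0174, 0.113 and 0.0913 CPM. Each clone was lower, with log2 ratios of -4.63 (interval -7.72 to -2.68), -1.94 (-3.01 to -0.98) and -2.24 (-3.47 to -1.17), but the count in clone 1 was under the floor.

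INHBB (ENSG00000163083, chromosome 2 from 120346143 to 120351808, plus strand) encodes the beta B subunit of activin B. It had 3 counts in the parental library and 3, 43 and 8 in the clones, or 0.0332, 0.0262, 0.403 and 0.0811 CPM. The library labelled clone 5 was the one that stood out, 12.2-fold above the parental library (interval of the log2 ratio 1.96 to 5.94), and the interval of clone 6 (-0.77 to 3.84) included 0. INHA (ENSG00000123999, chromosome 2 from 219569162 to 219575713, plus strand), the alpha subunit, had 56, 87, 71 and 90 counts in the parental library and the 3 clones, or 0.620, 0.759, 0.666 and 0.913 CPM. The clones lay slightly above the parental library, and the interval of the log2 ratio excluded 0 in clone 6 (0.06 to 1.07) but not in clone 1 or the library labelled clone 5.

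Levels of the 4 beta subunits can be compared with one another per kilobase of exon. Their sum was 89.5 CPM per kilobase in the parental library, of which INHBE made up 98.6%. The sum was 0.369, 0.496 and 0.457 CPM per kilobase in clone 1, the library labelled clone 5 and clone 6, or 242-, 180- and 196-fold lower. INHBE still held the largest share in each clone, at 94.0%, 59.6% and 80.2%. The remainder differed between clones: in the library labelled clone 5, INHBB held 25.4% and INHBC 11.4%, while in clone 6 INHBC held 10.0% and INHBB 5.54%. INHA, set against the beta sum per kilobase, was 0.395% of it in the parental library, and 117%, 76.6% and 114% in the clones. These shares in the clones rest on 130 to 166 counts over the 4 genes.

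FST (ENSG00000134363, chromosome 5 from 53480409 to 53487134, plus strand), the main activin antagonist, lay on opposite sides of the parental level among the clones. It had 37 counts in the parental library and 6, 330 and 6 in the clones, or 0.409, 0.0523, 3.10 and 0.0609 CPM. Against the parental library it was 7.82-fold lower in clone 1 and 6.73-fold lower in clone 6, but 7.56-fold higher in the library labelled clone 5 (log2 ratio 2.92, interval 2.43 to 3.45). The span over the clones was 59.2-fold, the widest of the 10 members. The fitted log2 fold change of the clones was 1.38 (SE 2.42) and became -2.81 without the library labelled clone 5, so 1 library set its sign.

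FSTL3 (ENSG00000070404, chromosome 19 from 676365 to 683399, plus strand) was the abundant antagonist. It had 6407, 8370, 7028 and 3492 counts in the parental library, clone 1, the library labelled clone 5 and clone 6, or 70.9, 73.0, 65.9 and 35.4 CPM. Clone 6 alone was clearly lower, with an interval of the log2 ratio from -1.06 to -0.94, and the log2 ratios of clone 1 and the library labelled clone 5 were 0.04 and -0.10. Together, FST and FSTL3 amounted per kilobase to 0.260 times the beta subunit sum in the parental library, and to 64.5, 45.4 and 25.3 times that sum in the clones. These are ratios of mRNA levels only. INHBE made up 98.6% of the sum in the parental library, and whether FST or FSTL3 binds its product was not tested.

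The 3 receptors among the members differed from the parental library by less than 1 on the log2 scale. The type I receptor ACVR1C, which is not among the members, was higher in every clone and is described below. ACVR1B (ENSG00000135503, chromosome 12 from 51951667 to 51997078, plus strand), the type I receptor also called ALK4, had 1813 counts in the parental library and 1432, 2305 and 2842 in the clones, or 20.1, 12.5, 21.6 and 28.8 CPM. Clone 1 lay under and clone 6 over the parental library, with log2 ratios of -0.68 and 0.52. ACVR2A (ENSG00000121989, chromosome 2 from 147844517 to 147930826, plus strand) had 828, 891, 868 and 1110 counts, or 9.16, 7.77, 8.14 and 11.3 CPM, so the parental value lay inside the range of the clones. ACVR2B (ENSG00000114739, chromosome 3 from 38453851 to 38493142, plus strand) had 1449, 1265, 1035 and 1244 counts, or 16.0, 11.0, 9.71 and 12.6 CPM. All 3 clones were under the parental library for ACVR2B, with log2 ratios of -0.54, -0.72 and -0.35 and intervals below 0. Over the 3 receptors the log2 ratios ran from -0.72 to 0.52.

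**Figure D2:**
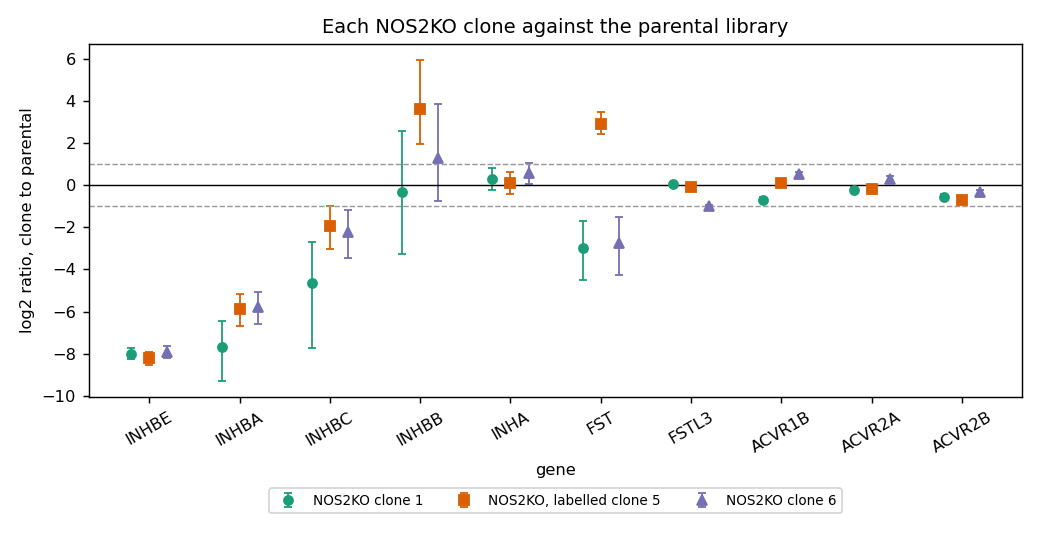
log2 ratio of each NOS2KO clone to the parental library for the 10 members, with exact Clopper-Pearson 95% intervals that cover counting error only; dashed lines mark a log2 ratio of 1 and -1. INHBE, INHBA and INHBC are below 0 in all 3 clones, FST is above 0 in the library labelled clone 5 and below it in the other clones, and the receptors lie between -0.72 and 0.52.

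All 10 members passed the expression filter of edgeR and entered its quasi-likelihood test of the 3 clones against the parental library. With the library labelled clone 5 left out, 9 members passed the filter and INHBB did not, so its fitted value rests on that library. The fitted log2 fold changes were -8.03 (SE 0.28) for INHBE, -6.21 (SE 0.85) for INHBA, -2.53 (SE 1.16) for INHBC, 2.32 (SE 1.85) for INHBB and 0.33 (SE 0.60) for INHA. They were -0.29 (SE 0.48) for FSTL3, 0.06 (SE 0.53) for ACVR1B, -0.02 (SE 0.43) for ACVR2A and -0.53 (SE 0.36) for ACVR2B. The median over the members was -0.15, beside 0.10 over all genes tested. Over all 22511 genes, an adjusted p under 0.05 was reached by 1 (0.00444%). That gene was INHBE, and since this call led to the choice of the family it is no test of it here. No gene was called with any 1 clone left out (without clone 1, without the library labelled clone 5 or without clone 6), and DESeq2's Wald test called 1113 genes.

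A second, looser criterion takes its thresholds from the legend of the study's volcano plot, a p under 0.05 and a log2 fold change beyond 1 in either direction. The test in that legend is Wald's, whereas edgeR's unadjusted quasi-likelihood p was taken for the criterion here. Under DESeq2, whose test is of the Wald kind, 2735 genes passed both thresholds, 1144 of them lower and 1591 higher. With edgeR the criterion was met by 2157 genes (9.58%), 1202 of them lower in the clones (5.34%) and 955 higher (4.24%). Among the members, INHBE and INHBA met it, both lower, and none met it in the other direction. A log2 ratio below -1 in all 3 clones was found for 1416 genes (6.29%), and INHBE, INHBA and INHBC were the members among them. A log2 ratio above 1 in all 3 clones was found for 1727 genes (7.67%) and for no member. Intervals below 0 in all 3 clones were found for 4 members, INHBE, INHBA, INHBC and ACVR2B, and intervals above 0 in all 3 for none. These intervals cover counting error only, and the share of all genes with such intervals was not counted, so the number cannot be judged. Since the members were chosen on this contrast, nothing is read from these counts. The parental group has 1 library, so the spread comes from the clones alone, and the smallest p that an exact permutation of these 4 libraries allows is 0.25.

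Upstream sequence from RefSeq (GRCh38.p14) was at hand for 9 members, all but INHBE. The sequence before the start site is shown for INHBA and INHBC, the members that were lower with INHBE in all 3 clones, and for INHA and FST, the members with a motif match. AP-1 matches are in capitals, and bases inside a GENCODE exon were left out except for FST. The INHBA sequence (chr7:41703109-41703340, minus strand) and the INHA sequence (chr2:219572060-219572194, plus strand) lie inside the span of longer transcripts of those genes that start further upstream. The FST sequence (chr5:53480459-53480485, plus strand) lies in the 5′ UTR of a GENCODE transcript that begins before the RefSeq start site. The INHBC sequence (chr12:57434534-57434759, plus strand) is intergenic, before the first base of the gene in GENCODE.
INHBA: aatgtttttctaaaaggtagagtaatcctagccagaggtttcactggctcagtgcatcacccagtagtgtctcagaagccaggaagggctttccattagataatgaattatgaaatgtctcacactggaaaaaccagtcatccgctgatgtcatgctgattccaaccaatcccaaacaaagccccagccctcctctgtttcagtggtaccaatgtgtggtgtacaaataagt
INHBC: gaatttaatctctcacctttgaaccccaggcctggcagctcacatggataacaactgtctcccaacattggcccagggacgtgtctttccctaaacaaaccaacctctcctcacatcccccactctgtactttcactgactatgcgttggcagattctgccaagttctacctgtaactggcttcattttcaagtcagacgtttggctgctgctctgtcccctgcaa
INHA: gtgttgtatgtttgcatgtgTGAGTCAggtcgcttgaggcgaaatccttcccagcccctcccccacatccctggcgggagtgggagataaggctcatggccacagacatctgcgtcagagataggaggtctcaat
FST: aaatgtcaccTGATTCAcactgaactt
In windows of 300 bases (250 before to 50 after the start site), the AP-1 element TGANTCA, searched because the study concerns c-Jun, was found on either strand in 7.71% of 35116 promoters. FST held it at position -160 and INHA at position -230 from the start site. The C/EBP-ATF element TGATGNAA (3.62% of promoters), the cyclic AMP element TGACGTCA (1.85%) and the SMAD palindrome GTCTAGAC (0.202%) had no match in the 9 members. A match here is a run of letters in a window and not a measured binding site.

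The chromosomal surroundings of INHBE were then examined. Neighbours were named where at least 1 library reached 1 CPM, which can favour genes that are lower in the clones, so no share of them is set against all genes. NXPH4, SHMT2, NDUFA4L2, GLI1, MARS and DDIT3 met the criterion, all lower, and NDUFA4L2 passed this minimum through the parental library alone. GLI1, a transcription factor of Hedgehog signaling that starts 855 bases after the end of INHBE, had 66.9 CPM in the parental library and 6.94, 5.66 and 21.8 CPM in clone 1, the library labelled clone 5 and clone 6. All 3 clones were lower, and the fitted log2 fold change was -2.54 (SE 0.86), far smaller than that of INHBE. DDIT3, which encodes the stress-response factor CHOP, had 98.1 CPM in the parental library and 6.02, 11.9 and 11.1 CPM in the clones (-3.34, SE 0.47). MARS, the methionyl-tRNA synthetase gene, had 416 CPM against 127, 177 and 129 CPM (-1.53, SE 0.34). Its gene overlaps DDIT3 and ARHGAP9 on the opposite strand, so reads in the overlaps may be shared.

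On the other side of INHBE, the genes that met the criterion were further away, the nearest of them 211608 bases from it. SHMT2, the mitochondrial serine hydroxymethyltransferase, had 972 CPM in the parental library and 229, 301 and 294 CPM in the clones. NDUFA4L2, a mitochondrial protein gene known as a target of hypoxia, had 7.10 CPM and then 0.654, 0.929 and 0.538 CPM. NXPH4, a neurexophilin, had 86.2 CPM and then 25.9, 26.3 and 18.4 CPM. NXPH4, SHMT2 and NDUFA4L2 were thus lower in every clone. R3HDM2, STAC3 and MBD6 did not meet the criterion. R3HDM2 had 54.2 CPM in the parental library and 38.3, 48.4 and 42.5 CPM in the clones, STAC3 had 1.14 CPM and then 0.584, 0.844 and 1.05 CPM, and MBD6 had 54.6 CPM and then 45.0, 64.3 and 57.9 CPM. ARHGAP9 had 106 counts in the parental library and 8, 189 and 102 in the clones, so clone 1 alone was far lower.

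**Figure D3:**
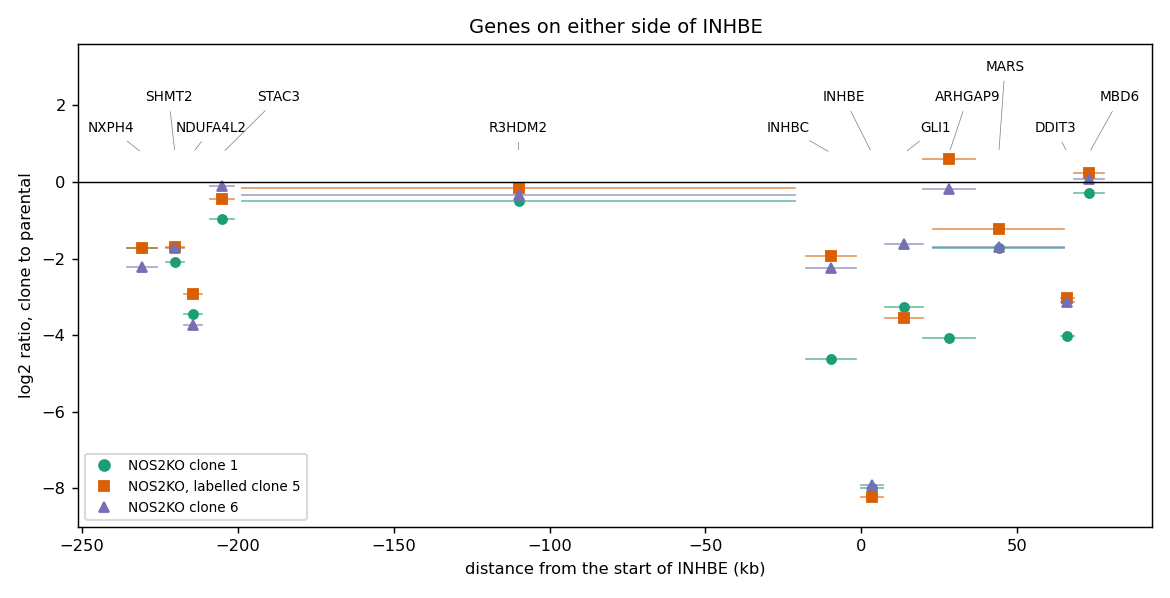
log2 ratio of each clone to the parental library for INHBE, INHBC and 10 other neighbouring genes, plotted by distance in kilobases from the start of INHBE; horizontal bars span each gene. INHBE is the lowest point, near -8 in all 3 clones, with GLI1, DDIT3 and NDUFA4L2 also lower and MBD6 on both sides of 0.

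Genes whose 3 log2 ratios were nearest to those of INHBE were ranked by Euclidean distance over 9656 other genes with at least 10 CPM in the parental library, with 0.1 CPM added to every value. The order was KLHDC7B (distance 0.0457), CSF3, ADM2, MUC5AC, LCN2, S100P, FAM129A, IL1A, KRT16 and CHAC1 (distance 3.81). KLHDC7B, a kelch domain gene, had 3002 counts in the parental library and 5, 3 and 5 in the clones. ADM2, which encodes a peptide of the adrenomedullin family, had 2041 counts and then 15, 6 and 6. CSF3, the granulocyte colony-stimulating factor, had 1455 counts and then 3, 1 and 1. In these genes the clones were at or near the floor, where the added value sets the ratio, and INHBE, with 95 to 120 counts, was not. CHAC1, which degrades glutathione and belongs to the integrated stress response, kept counts in every clone (7731 in the parental library, then 214, 168 and 116). With 1 CPM added, 5 of these 10 genes were again among the nearest 10.

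The pathway around the family was covered by 5 lists with 58 genes, of which 49 were tested. The criterion was met by 13 of them (26.5%), 7 lower and 6 higher, beside 9.58% of all genes. The lists were chosen with earlier results of these data known, so nothing is read from this share. By edgeR (quasi-likelihood, Benjamini-Hochberg adjustment) no gene of these lists came under an adjusted p of 0.05, while 16 had an unadjusted p under 0.05 and DESeq2's Wald test gave 6 an adjusted p under 0.05 (CCN2, FSTL1, GDF15, LTBP2, PCSK7 and TGIF1). The count of 13 became 17 without clone 1, 4 without the library labelled clone 5 and 8 without clone 6.

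Other ligands of the TGF-beta family were mostly low. Of 9 genes, 5 were tested, 1 was lower and 1 higher by the criterion, and the median log2 fold change was 0.88. GDF15, a stress-induced cytokine whose known receptor is GFRAL and not an activin receptor, had 230.2 CPM in the parental library and 3.72, 13.2 and 10.9 CPM in the clones (-4.63, SE 0.72). MSTN, the activin-like ligand myostatin, had 7 counts in the parental library and 111, 161 and 31 in the clones (3.57, SE 1.07). GDF11, its close relative, had 27.9 CPM in the parental library and 48.4, 58.1 and 47.6 CPM in the clones (0.88, SE 0.28), above the parental level in each clone but outside the criterion.

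Among other receptors and co-receptors, 7 of 9 were tested, 1 was lower by the criterion and the median was 0.15. That gene was TGFBR3L, an inhibin co-receptor, with 12.8 CPM in the parental library and 2.89, 4.79 and 4.95 CPM in the clones (-1.61, SE 0.52). ACVR1C, the type I receptor ALK7, had 83 counts in the parental library and 157, 355 and 296 in the clones (log2 fold change 1.48, SE 0.71). Every clone was above the parental library, and the criterion was not met. TGFBR3 (betaglycan, which presents inhibin) had 35.4 CPM and then 44.7, 22.9 and 25.5 CPM, so clone 1 and the other clones lay on opposite sides of the parental library. BAMBI, a pseudoreceptor, did so too, with 14.3 CPM and then 6.59, 24.2 and 16.9 CPM. ACVR1 had 28.7 CPM against 31.0, 44.0 and 33.5 CPM, BMPR2 had 38.7 CPM against 55.9, 63.9 and 59.2 CPM, and the co-receptor TDGF1 (Cripto) had no count in any library, which allows up to 0.0246 to 0.0332 CPM.

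Of the other antagonists and processing enzymes, 8 of 9 were tested, 2 were higher by the criterion and none lower, and the median was 1.21. FSTL1, a secreted relative of follistatin, had 162 CPM in the parental library and 324, 495 and 388 CPM in the clones (1.31, SE 0.37). PCSK7, a proprotein convertase of the type that cleaves TGF-beta family precursors, had 12.6 CPM and then 27.1, 25.6 and 28.3 CPM (1.10, SE 0.29). Both were higher in each clone. The convertase FURIN had 212 CPM in the parental library and 103, 218 and 208 CPM in the clones, with clone 1 standing apart.

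The fitted log2 fold changes of the SMAD2 and SMAD3 signal transducers lay between -1 and 1 for all tested genes but TGIF1. Of 15 genes 14 were tested, 1 was lower by the criterion, and the median was -0.28. The fitted log2 fold change was below 0 for 12 of those tested and above 0 for 2. SMAD3 had 114 CPM in the parental library and 126, 129 and 109 CPM in the clones. SMAD2 had 56.4 CPM and then 58.3, 38.5 and 39.5 CPM, and SMAD4 had 39.4 CPM and then 36.3, 31.8 and 31.8 CPM. The inhibitory SMAD7, itself a target of the pathway, had 13.6 CPM and then 13.7, 17.0 and 9.93 CPM. TGIF1, a co-repressor of SMAD2, was the gene that met the criterion, with 107 CPM in the parental library and 48.5, 36.0 and 38.9 CPM in the clones (-1.39, SE 0.30).

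Of 20 SMAD2 and SMAD3 target genes, 19 were tested, 4 were lower and 3 higher by the criterion, and the median was 0.15, so genes of this list lay on both sides of the parental level. KLF10, a zinc finger factor induced early by TGF-beta, had 172 CPM in the parental library and then 54.0, 57.3 and 87.7 CPM (-1.37, SE 0.39). ANGPTL4, an inhibitor of lipoprotein lipase, had 9.27 CPM and then 2.92, 1.75 and 0.588 CPM (-2.40, SE 0.94), and CDKN2B, the cell cycle inhibitor p15, had 50 counts and then 13, 3 and 5 (-3.08, SE 1.01). KLF10, ANGPTL4 and CDKN2B were thus lower in every clone. CCN2 (CTGF in the annotation), the connective tissue growth factor, went the other way, with 15.0 CPM in the parental library and 157, 71.5 and 82.1 CPM in the clones (2.79, SE 0.53). LTBP2, a latent TGF-beta binding protein, had 2.33 CPM and then 5.69, 7.68 and 9.33 CPM (1.70, SE 0.49), and TGFBI, a matrix protein, had 1664 CPM and then 3142, 3281 and 3866 CPM (1.04, SE 0.36).

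**Figure D4:**
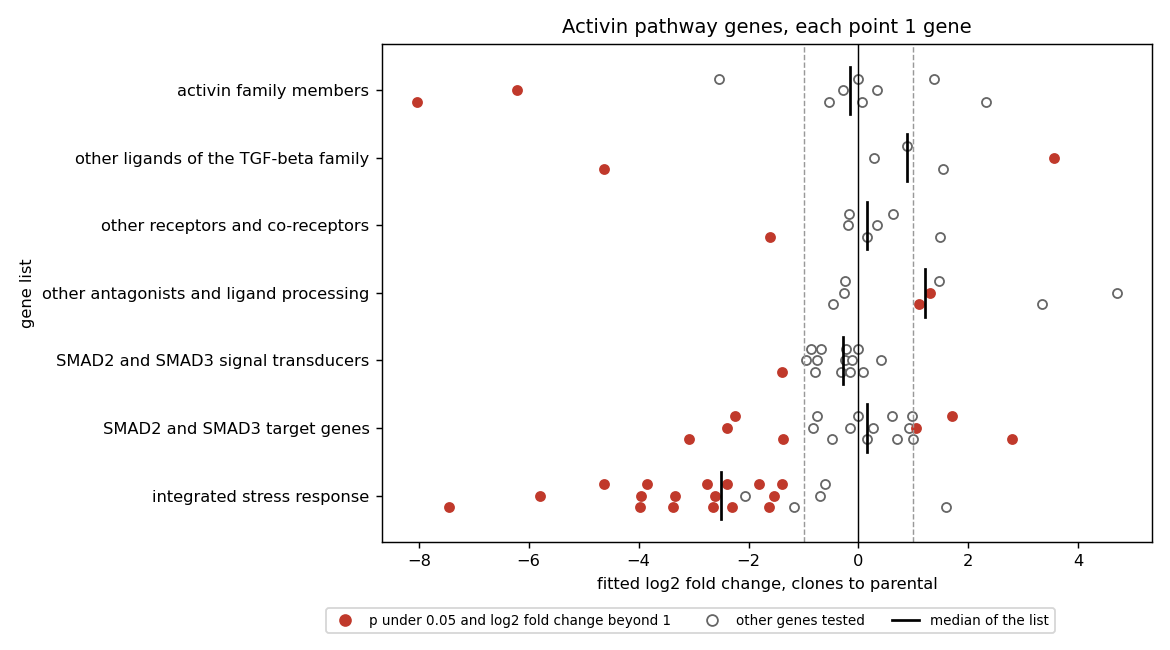
Fitted log2 fold change of the clones against the parental library for every tested gene of the family, of 5 pathway lists and of the integrated stress response, with 1 point per gene; filled points met the criterion (unadjusted p under 0.05 and log2 fold change beyond 1, dashed lines) and vertical bars are list medians. INHBE at -8.03 and INHBA at -6.21 are the lowest members, the medians of the signal transducers and target genes lie at -0.28 and 0.15, and that of the stress response lies at -2.50.

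The integrated stress response, of which INHBE is known as a target, was read from 22 genes, all tested and listed with earlier results in view. Of these, 17 (77.3%) were lower by the criterion and none higher, with a median of -2.50, beside 5.34% lower among all genes. Because the list was written with those results known, nothing is read from this share. The fitted log2 fold change was below 0 for 21 of the 22 genes and above 0 for 1. By edgeR (quasi-likelihood, Benjamini-Hochberg adjustment) none of the list came under an adjusted p of 0.05, 17 had an unadjusted p under 0.05, and DESeq2 gave 14 an adjusted p under 0.05. Among all 22511 genes tested, those 3 counts were 1, 2590 and 1113. With DESeq2, 17 genes of the list were lower by the criterion and 1 was higher. ATF4, the transcription factor at the centre of the response, had 593 CPM in the parental library and 157, 248 and 273 CPM in the clones (-1.39, SE 0.42). TRIB3, an ATF4 target that restrains the response, had 553 CPM and then 52.4, 27.4 and 27.1 CPM (-3.96, SE 0.50). CHAC1 had 85.5 CPM and then 1.87, 1.58 and 1.18 CPM (-5.79, SE 0.38), and ASNS, the asparagine synthetase gene, had 386 CPM and then 36.2, 12.9 and 24.6 CPM (-3.98, SE 0.60). ATF3 did not meet the criterion, with 40.5 CPM in the parental library and 20.5, 6.56 and 2.11 CPM in the clones (-2.06, SE 1.21). DDIT3, MARS and GDF15, described above, also belong to this list. The other genes that were lower by the criterion were CEBPB, CEBPG, SESN2, DDIT4, PPP1R15A, NUPR1, PSAT1, STC2, SLC7A11 and FGF21, with fitted log2 fold changes from -7.46 (FGF21) to -1.63 (DDIT4). The part of this response in the level of INHBE was not tested.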

How the data were processed

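The authors deposited raw counts of reads per gene for 4 libraries, 1 table each, without normalization, with the exon length of each gene. Libraries were made from 1.3 µg of RNA with a NEBNext Ultra II kit after oligo-dT enrichment, and read as 2x150 paired ends. The submitters' processing notes name bcl2fastq 2.17, Trimmomatic 0.36, STAR 2.5.2b, Subread 1.5.2 with featureCounts, DESeq2 and GRCh38, and the strand setting is not given in the sources used here. Without a known strand setting, reads of a gene and an antisense neighbour (ACVR2B and ACVR2B-AS1, INHBA and INHBA-AS1) cannot be taken as separated. Symbols came from GENCODE release 29, which named 56898 of the 57500 identifiers, and 54784 had the same start and end there.

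The fit used edgeR 4.0.16 under R 4.3.3 (filterByExpr by group, which kept 22511 genes, then TMM, estimateDisp, glmQLFit, glmQLFTest) and Benjamini-Hochberg adjustment over all genes kept. The residual degrees of freedom were 2, from the clones. DESeq2 1.42.0 was an alternative, beside scaling by RLE, by the upper quartile or by library size alone, no low-count filter, other thresholds and leaving out each clone. Ratios of a clone to the parental library carry exact Clopper-Pearson 95% intervals. Intervals, lists and plots were made with scipy 1.17.1, pandas 2.3.3, numpy 2.4.6 and matplotlib 3.10.9 in Python 3.11.15. The fits and intervals were run on simulated data as a check of the code. The libraries simulated for the fits had a smaller spread than these, so calls at the spread of these data were not checked. Named were the members, the 10 genes nearest to INHBE, 5 expressed neighbours (at least 1 CPM in a library) on each side of it with INHBC and GLI1, and, in the lists, genes that met the criterion plus a set of core genes; 1 gene of the target list is counted but its values are not reported here. The members and all gene lists were chosen with earlier results of these data known. Nothing says that the clones came from separate cultures beyond their numbers. The p-values rest on the spread between these clones, and the parental group adds none.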

Additional observations from a re-analysis of the deposited data

How the results depend on the processing

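The log2 fold change of INHBE ran from -8.10 to -7.93 when each clone was left out and from -8.03 to -7.93 over the other alternatives. Its share of beta subunit mRNA, a mean of 77.9% over the clones, ran from 69.9% to 87.1% when a clone was left out. The members meeting the criterion numbered 2 or 3, with INHBC added without a filter on low counts or without clone 1, and FST added, as lower, without the library labelled clone 5, where it was -2.81 on the log2 scale. Genes with an adjusted p under 0.05 numbered 6 without a filter, 1113 with DESeq2's Wald test, and 0 whichever clone was left out of edgeR's test (unadjusted p under 0.05: 4609 genes without clone 1, 1689 without the library labelled clone 5 and 1467 without clone 6). INHBE was thus not called by the adjusted p with any clone left out. Genes meeting the criterion numbered 1466 to 3399 when a clone was left out, the most without clone 1, and DESeq2 gave 1144 lower and 1591 higher, against 1202 and 955. Pathway genes meeting it numbered 4 to 17. Besides FST, the sign of 2 members near 0 changed between alternatives: ACVR2A ran from -0.20 to 0.09 and ACVR1B from -0.23 to 0.33. No paired analysis was possible because the parental group has 1 library, so the groups share fewer than 2 replicate numbers. Depth limits INHBC and INHBB, which are near the floor of 3 counts in some libraries.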

Other observations

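Some other genes of the pathway lists had levels that differed between the clones. LEFTY1, a nodal antagonist, had 15 counts in the parental library and 1, 22 and 116 in clone 1, the library labelled clone 5 and clone 6. LEFTY2, its relative, had 1 count in the parental library and 14, 82 and 7 in the clones. PCSK5, a proprotein convertase, had 8 counts in the parental library and 3, 261 and 23 in the clones, so the library labelled clone 5 was the highest, as it was for FST and INHBB. COL1A1, a collagen gene in the target list, had 713 CPM in the parental library and 275, 534 and 2647 CPM in the clones. Of the markers, KRT14 had 358 counts in the parental library and 24, 1 and 0 in the clones. GDF9, a ligand of the oocyte, had 12 counts in the parental library and 37, 49 and 38 in the clones, and TGIF2, a relative of TGIF1, had 4560 counts and then 3269, 3201 and 2889, so that the clones lay together and apart from the parental library.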
